A study of Mus musculus with 7 samples.

Results

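The cytochrome P450 genes described here were all genes in the 7 tables of single libraries whose symbol is Cyp followed by digits, letters and digits, such as Cyp2a5. The rule found 73 of the 20839 genes listed in any library, and the rule uses the symbol alone. A library listed a gene only if at least 3 of its cells held a transcript, so a gene that is not listed may still be in up to 2 cells of that library. The Aire trace listed 47 of the 73 genes, the Week 2 isotype control 70 and the Week 10 isotype control 59. Week 2, Week 4, Week 6 and Week 10 anti-RANKL listed 37, 27, 27 and 51. All 7 libraries listed 21 of the genes, and 11 genes were listed in 1 library only.

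The study sorted EpCAM+ CD45- cells from mouse thymus and sequenced single cells by a droplet method, with 3 thymi pooled for each library and 1 library for each group. The Aire trace library came from C57BL/6 mice aged 6 weeks that carry Aire-CreERT2 and R26-CAG-Stopfl-zsGreen and received 2 mg tamoxifen on alternate days over 10 days. In these mice a cell in which the Aire promoter drives Cre during the treatment turns on ZsGreen for good. The other 6 libraries came from C57BL/6 mice that received 100 ug of antibody 3 times within 1 week, either anti-RANKL, which blocks a signal that medullary thymic epithelial cells (mTECs) need to mature, or an isotype control. The treated mice were 4, 6, 8 and 12 weeks old at Week 2, Week 4, Week 6 and Week 10. The controls were 4 weeks old at Week 2 and 12 weeks old at Week 10, so Week 4 and Week 6 have no control of their own age. With 1 pool of mice per group, differences between treatments have no replicate check, and the pool and the treatment of a library cannot be told apart, nor, at Week 4 and Week 6, can the age. Comparisons within a library, such as that of cells with and without Aire, were tested over the 7 libraries.

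Cytochrome P450 enzymes are haem-containing monooxygenases, most of them bound to the endoplasmic reticulum or to mitochondria. The liver, the adrenal gland, the gonads, the olfactory mucosa and the lung make different members, which break down drugs and toxins or build and degrade steroids, bile acids, vitamin D and retinoic acid. mTECs transcribe many genes of such peripheral tissues, each in a small share of the cells, so that developing T cells that recognise the products can be removed, and the Aire protein drives part of this transcription. Several P450 enzymes are known autoantigens in the autoimmune polyendocrine syndrome that follows the loss of Aire, among them steroid enzymes of the adrenal cortex and the liver enzyme encoded by Cyp1a2 in the mouse.

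The libraries held 730 to 1475 cells and 3857876 to 22197691 UMIs, which count transcript molecules and were not divided by transcript length. The median was 4299.5 UMIs per cell in Week 6 anti-RANKL and 16809 in the Week 2 isotype control. Pairs of libraries shared 0 to 7 cell barcodes. Cells with a transcript of Ptprc, the CD45 gene, numbered 11 to 69 per library at 2000 UMIs or more and were kept apart from the classes below. In the remaining cells the summed level of 6 thymic epithelial markers was 172 to 259 UMIs per 10000 over the libraries. That of the T cell markers was 0.2 to 0.424, and 3.38 to 25.8 in the cells with Ptprc. Of the 10 T cell markers, Ptprc was at 0 by the choice of cells, and Trac and Trbc2 were not listed in any library and so were not measured. No step against doublets is named in the methods used here, and none was applied.

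A total of 28846 UMIs fell on the 73 genes, and a few genes held most of them. Cyp2a5, the coumarin hydroxylase of mouse liver and olfactory mucosa, held 25.2% of these UMIs, and the top 5 genes together held 56.3%. At the other end, 31 genes had fewer than 50 UMIs over all 8453 cells. Only 11 genes were found in over 5% of the cells, while 50 were found in fewer than 1%.

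The genes differed in how much transcript a cell held once it held any. Over the 73 genes the median was 1.99 UMIs per cell with a UMI, with a range of 1.00 to 9.33. Genes listed in all 7 libraries had a median of 1.30, and the other 52 genes a median of 2.05. Cyp20a1, an orphan P450 with no agreed substrate, was found in 892 cells with a mean of 1.13 UMIs and at most 4 in a cell. Cyp1a2, the liver enzyme that breaks down caffeine, was found in only 78 cells but with a mean of 9.33 UMIs and up to 103 in a cell. Its top 10 cells held 66.5% of its UMIs, and 47.4% of its positive cells held 1 UMI. Cyp2a5 joined both properties, with 952 positive cells, a mean of 7.64 UMIs in them and up to 233 in a cell, though 51.6% of its positive cells held 1 UMI. In all, 17 genes reached 20 or more UMIs in a cell, and 4 genes never exceeded 1.

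**Figure D1:**
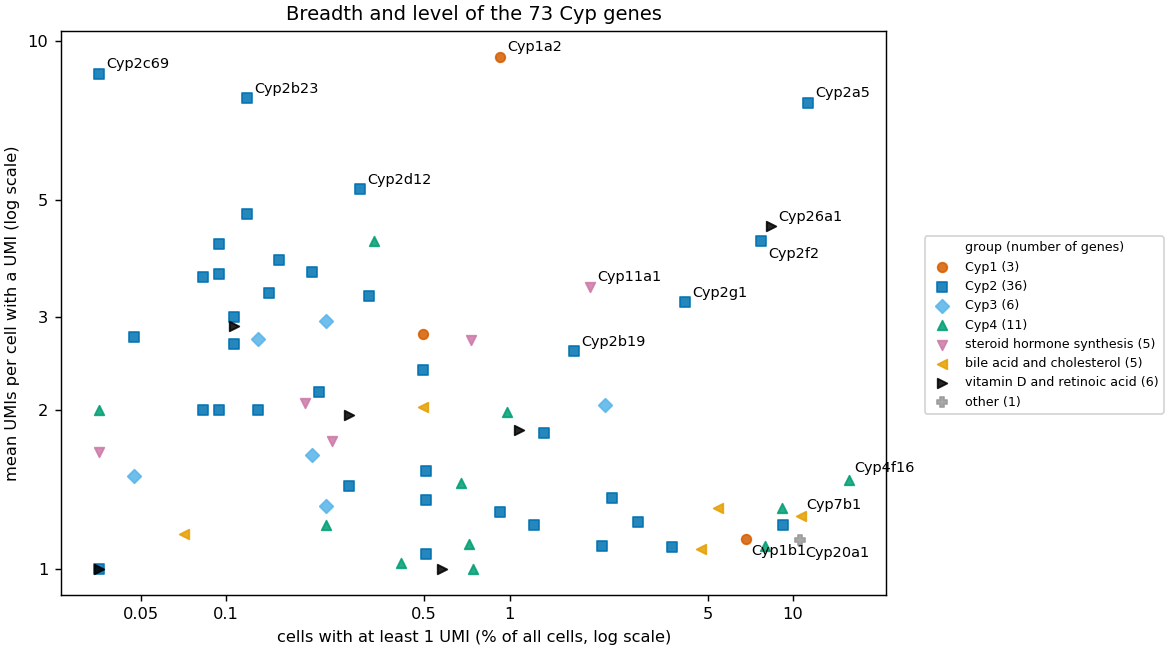
Each point is a Cyp gene, placed by the percent of all 8453 cells with at least 1 UMI (horizontal axis, log scale) and by its mean UMIs in those cells (vertical axis, log scale), with colour and shape giving the group of enzymes. Cyp2a5 lies high and to the right, Cyp1a2 highest of all at 9.33, and Cyp20a1 and Cyp7b1 low and to the right near 1 UMI per positive cell.

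The 36 genes of the Cyp2 family, mostly enzymes of xenobiotic and fatty acid metabolism, held 15035 UMIs, of which Cyp2a5 had 7273, Cyp2f2 2717 and Cyp2g1 1127. Cyp2f2 activates naphthalene in the club cells of the airway, and Cyp2g1 belongs to the olfactory mucosa. The 11 Cyp4 genes, fatty acid hydroxylases, held 4273 UMIs, led by Cyp4f16 with 1965 UMIs in 1330 cells. Of the 6 genes that act on vitamin D and retinoic acid, Cyp26a1, which degrades retinoic acid, held 3145 of 3435 UMIs. The 5 bile acid and cholesterol genes held 2271 UMIs, of which Cyp7b1, an oxysterol hydroxylase, had 1139 and Cyp27a1, a sterol hydroxylase of mitochondria, had 602. The 3 Cyp1 genes, which respond to the aryl hydrocarbon receptor, held 1503 UMIs, and the 6 Cyp3 genes, drug-metabolising enzymes of liver and gut, held 519.

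The steroid hormone genes were found in few cells. Their 5 listed members held 799 UMIs, of which Cyp11a1, the side-chain cleavage enzyme that starts steroid synthesis from cholesterol, had 558 in 163 cells. Cyp17a1, needed for androgens, had 168 UMIs in 62 cells of 4 libraries. Cyp11b1, the last step to corticosterone, had 35 UMIs in 20 cells, and Cyp19a1, the aromatase that makes oestrogens, had 33 UMIs in 16 cells. Cyp21a1, the adrenal steroid hydroxylase whose human counterpart is a main adrenal autoantigen, was listed in 1 library, with 5 UMIs in 3 cells.

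The GENCODE vM21 annotation of the mouse genome (GRCm38) holds 94 protein-coding genes that fit the symbol rule, and 72 of the 73 members matched it by symbol, all but Cyp2c44. A match by symbol misses a gene that the deposited tables hold under another symbol. By symbol, the other 22 annotated genes were not listed in any library. They include Cyp7a1, the rate-limiting enzyme of bile acid synthesis, and Cyp11b2, the aldosterone synthase. The remainder are Cyp2a12, Cyp2a22, Cyp2b9, Cyp2b13, Cyp2c23, Cyp2c38, Cyp2c39, Cyp2c66, Cyp2c67, Cyp2d11, Cyp2j7, Cyp2t4, Cyp2w1, Cyp3a59, Cyp4a14, Cyp4a29, Cyp4a31, Cyp4a32, Cyp4f37 and Cyp4f39. Many of these have near-identical copies, and reads that map to more than 1 gene can be split or dropped in counting.

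To gauge that limit, the last 500 bases of each member's transcripts were compared between annotated genes in windows of 60 bases, since droplet kits commonly read the 3′ end (the kit is not given in the sources used here). Of 72 members with a transcript, 41 shared no window with another gene, and 10 shared more than 20% of their windows. Cyp2a5 shared 37.4% of its windows, 26.2% with Cyp2a4, so the split of reads between Cyp2a5 and Cyp2a4 is uncertain. Cyp4f16 shared 17.1%, most of them with Cyp4f37, and Cyp2g1 shared 1.29%. Cyp2f2, Cyp2b19, Cyp26a1 and Cyp1a2 shared none.

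The promoters of the members that lead the results below also differed. The sequences are the 250 bases before the transcription start in RefSeq (GRCm38.p6), 5′ to 3′ on the strand of the gene. They are shown for Cyp2a5 and Cyp2f2, the leading members in cells without Aire, for Cyp26a1 and Cyp1a2, which were raised most in cells with Aire, and for Cyp20a1, found widely at 1 UMI or a little more. Capitals mark TATAAA on the gene's strand, and on either strand GCGTG (the core to which the aryl hydrocarbon receptor binds), GGGCGG (the GC box) and 2 copies of AGTTCA in the same direction with 5 bases between them (a spacing known from retinoic acid response elements), which in Cyp26a1 lie on the opposite strand and so read as their reverse complement. The regions are chr7:26835089-26835338 (+) for Cyp2a5, chr7:27119705-27119954 (+) for Cyp2f2, chr19:37697558-37697807 (+) for Cyp26a1, chr9:57683656-57683905 (-) for Cyp1a2 and chr1:60343050-60343299 (+) for Cyp20a1.
Cyp2a5: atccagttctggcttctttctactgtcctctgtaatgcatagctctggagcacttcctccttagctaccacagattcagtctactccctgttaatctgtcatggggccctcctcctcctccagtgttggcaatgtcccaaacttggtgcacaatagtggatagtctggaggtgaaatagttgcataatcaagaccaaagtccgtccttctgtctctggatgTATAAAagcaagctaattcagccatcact
Cyp2f2: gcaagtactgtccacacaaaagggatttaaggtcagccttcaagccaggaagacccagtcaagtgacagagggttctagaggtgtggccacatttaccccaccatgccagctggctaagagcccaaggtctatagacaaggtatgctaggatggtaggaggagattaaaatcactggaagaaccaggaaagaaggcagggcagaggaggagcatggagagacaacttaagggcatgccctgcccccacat
Cyp26a1: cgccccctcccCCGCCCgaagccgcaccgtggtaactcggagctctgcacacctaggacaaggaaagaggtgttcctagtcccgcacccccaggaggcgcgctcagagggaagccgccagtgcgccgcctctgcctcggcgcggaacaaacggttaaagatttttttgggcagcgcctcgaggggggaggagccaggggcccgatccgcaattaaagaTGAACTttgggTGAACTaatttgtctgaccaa
Cyp1a2: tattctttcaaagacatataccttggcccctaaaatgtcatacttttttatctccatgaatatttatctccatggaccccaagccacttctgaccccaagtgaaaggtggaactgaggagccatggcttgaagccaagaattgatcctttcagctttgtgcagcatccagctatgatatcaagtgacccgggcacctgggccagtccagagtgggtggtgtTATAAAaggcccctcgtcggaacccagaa
Cyp20a1: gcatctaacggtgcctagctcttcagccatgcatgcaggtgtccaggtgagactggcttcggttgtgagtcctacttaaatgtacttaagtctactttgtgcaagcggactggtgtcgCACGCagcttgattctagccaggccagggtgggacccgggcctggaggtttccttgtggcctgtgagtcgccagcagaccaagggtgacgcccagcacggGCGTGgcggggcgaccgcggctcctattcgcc

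Among 57 members with a RefSeq promoter under their symbol, 13 (22.8%) held TATAAA on their strand, against 8.12% of 27025 promoters of the same length. Within 40 bases of the start it was in 8 members (14.0%) and in 2.55% of all promoters, and in Cyp2a5 and Cyp1a2 it began 29 bases before the start. The 2 copies of AGTTCA with 5 bases between them, searched on both strands, were in the promoter of Cyp26a1 and in 6 of the 27025 promoters (0.0222%). AGTTCA alone, searched on both strands and so also counted within the repeat, was in 15.8% of member promoters and 11.9% of all. The other motifs, each on both strands, were CCAAT (42.1% of members, 34.5% of all), GCGTG (22.8% and 28.2%) and GGGCGG (28.1% and 32.9%). Member promoters held a median of 2 CG dinucleotides and all promoters a median of 6, with 20 in Cyp26a1, 15 in Cyp20a1, 3 in Cyp1a2, 1 in Cyp2a5 and 0 in Cyp2f2. These are matches of letters in a window, not sites of binding.

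The first comparison asked whether cells with more Aire transcript held more Cyp genes. Cells were divided by the deposited value of Aire, the natural log of 1 plus its UMIs per 10000, into cells at 0, up to 1.5 and above 1.5 (Aire-high), and only cells with Ptprc at 0 entered. Cells with more Aire were also deeper, with a median over libraries of 3983 to 11231 UMIs at Aire 0 and 7342 to 21905 above 1.5. Counts per cell were therefore computed as the number of genes expected if 2000 UMIs were drawn from the cell, which leaves out shallower cells. Before that step a cell of the Week 2 isotype control held a mean of 2.91 Cyp genes and a cell of Week 4 anti-RANKL 0.55.

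At equal depth the number of Cyp genes per cell in Aire-high cells and in cells without Aire differed by less than the spread between libraries. In the order Aire trace, Week 2 and Week 10 isotype control, Week 2, Week 4, Week 6 and Week 10 anti-RANKL, Aire-high cells held 0.527, 0.548, 0.484, 0.374, 0.435, 0.336 and 0.444 Cyp genes per cell. Cells at Aire 0 held 0.365, 0.650, 0.369, 0.394, 0.231, 0.269 and 0.491 in the same order. The Aire-high class was the higher in 4 libraries and the lower in 3, and the 2 control libraries went opposite ways. The mean difference was 0.0542 Cyp genes per cell (SD 0.114, n = 7 libraries, exact two-sided sign-flip permutation test, p = 0.266). Adjusted over the 13 two-sided tests of this kind p was 0.345 by the exact permutation test, and the smallest p the design allows is 0.0156.

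The intermediate class also differed from the others by less than the spread between libraries. Cells with Aire up to 1.5 held 0.185 to 0.630 Cyp genes per cell over the libraries and differed from cells at 0 by -0.00926 (SD 0.0443, n = 7, exact permutation p = 0.609). Aire-high cells exceeded them by 0.0634 (SD 0.117, higher in 5 of 7 libraries, exact permutation p = 0.203). Among 20 cells drawn together, Aire-high cells held 6.59 different Cyp genes on average and cells at Aire 0 held 6.22, a difference of 0.369 (SD 1.47, n = 7, exact permutation p = 0.516). The level per detected gene averaged 1.47 UMIs in both classes, with a difference of 0.00119 (SD 0.475, exact permutation p = 1.00). In neither the number of genes nor their level did the difference exceed the spread between libraries.

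The class without Aire is itself a mixture, and the number of Cyp genes differed within it. Ccl21a, the chemokine of a separate mTEC subset, was above 4 on the deposited scale in 118 to 843 of the Aire 0 cells of a library. In these Ccl21a-high cells the libraries held 0.287, 0.368, 0.228, 0.266, 0.204, 0.212 and 0.333 Cyp genes per cell, in the order given above. The remaining Aire 0 cells, here called Ccl21a-low, held 0.635, 0.787, 0.459, 0.599, 0.285, 0.335 and 0.603. The Ccl21a-high class was the lower in all 7 libraries and by more than the spread between them, with a mean difference of -0.258 (SD 0.123, exact two-sided permutation p = 0.0156, adjusted p = 0.0406).

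The repertoire of a group of cells differed in the same direction. In 20 Ccl21a-high cells 3.52 to 5.67 different Cyp genes were expected, and in 20 Ccl21a-low cells 4.88 to 10.1. The mean difference was -3.26 genes (SD 1.25, lower in 7 of 7 libraries, exact permutation p = 0.0156, adjusted p = 0.0406). The level per detected gene was 1.12 UMIs in the Ccl21a-high class and 1.67 in the Ccl21a-low class, a difference of -0.549 that does not pass the correction (SD 0.369, lower in 6 of 7, exact permutation p = 0.0312, adjusted p = 0.0677). Without Cyp2a5 the difference in Cyp genes per cell was -0.18.

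Compared with Ccl21a-low cells alone, Aire-high cells held a mean of 0.0791 fewer Cyp genes per cell, again within the spread between libraries (difference -0.0791, SD 0.144, higher in 3 and lower in 4 libraries, exact permutation p = 0.219).

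**Figure D2:**
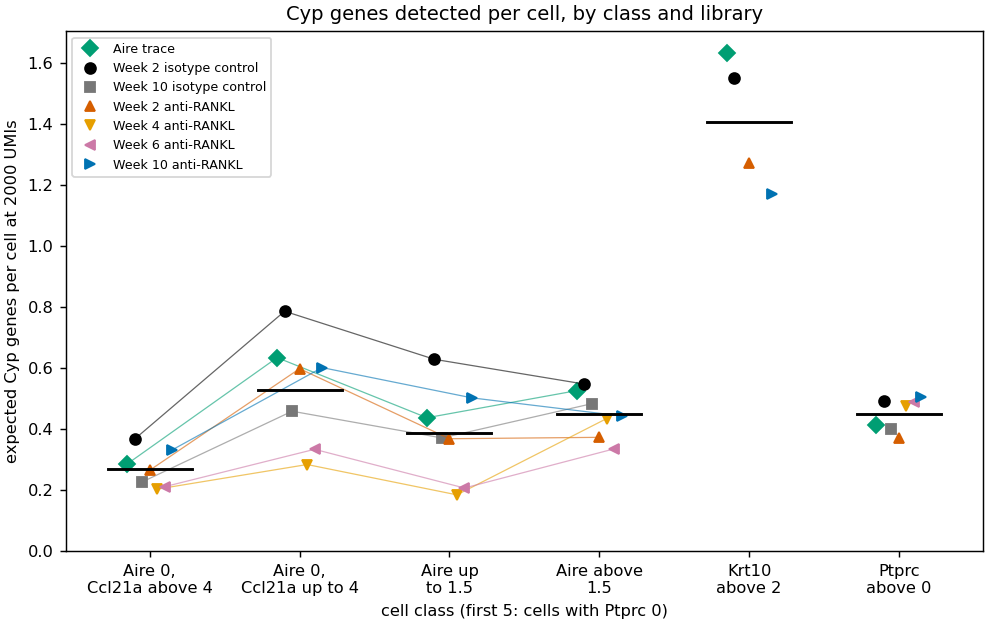
Each symbol is a library and the vertical axis is the expected number of Cyp genes per cell at 2000 UMIs, with classes of fewer than 10 cells in a library left out, black bars for means over libraries and thin lines that join a library over the Ccl21a and Aire classes. Every library rises from the Ccl21a-high class to the Ccl21a-low class, while the Aire-high values of 0.336 to 0.548 overlap the range of the Ccl21a-low class.

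In the number of genes per cell, the serpin and apolipoprotein families, many of whose members are also made by the liver, did not show this division. Single members can differ from their family. Apoa1 was lower in Ccl21a-high cells in the gene fits below (log2 difference -1.50, SE 0.44, lower in 6 of 7 libraries, limma adjusted p = 0.0268). For 52 serpin and 16 apolipoprotein genes the log2 ratio of genes per cell between Ccl21a-high and Ccl21a-low cells averaged 0.15 and 0.23, against -0.92 for the Cyp genes. The Cyp ratio differed from the serpin ratio by a mean of -1.07 (SD 0.37) and from the apolipoprotein ratio by -1.15 (SD 0.49), each lower in 7 of 7 libraries (exact permutation p = 0.0156, adjusted p = 0.0406). Between Aire-high and Aire 0 cells, the log2 ratio averaged 0.24 for the Cyp genes, -0.45 for the apolipoproteins and -0.02 for the serpins. The Cyp ratio exceeded the apolipoprotein ratio by 0.69 (SD 0.40, 7 of 7 libraries, exact permutation p = 0.0156, adjusted p = 0.0406). The gap of 0.26 to the serpins did not pass (SD 0.42, higher in 4 of 7, exact permutation p = 0.141).

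Smaller sets of cells were described without a test. Cells with Krt10, a keratin of the upper epidermis, above 2 numbered 1 to 29 per library and held 1.17 to 1.63 Cyp genes per cell in the 4 libraries with at least 10 of them, above the other classes of the same libraries. In these cells Cyp2a5 was expected at 1.32 UMIs per cell at 2000 UMIs and Cyp2b19, an arachidonic acid epoxygenase of differentiated keratinocytes, at 0.49. Without them the difference between the Ccl21a classes was -0.233 (lower in 7 of 7 libraries, exact permutation p = 0.0156). Cells with the tuft transcripts Trpm5 and Dclk1 held 0.296 to 0.562 Cyp genes per cell, and cells with the cortical transcripts Ackr4 and Prss16 held 0.288 to 0.451. Cells with a Ptprc transcript, which the sort on CD45 was meant to remove, held 0.37 to 0.506 at a median of 4000 to 13124.5 UMIs. The part of free RNA and of doublets in these values was not tested.

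Gene by gene, members moved in both directions between the Aire classes. With limma on log2(CPM + 10) of the UMI sums per library and class, with the library as a block, 59 of the 73 members could be tested between Aire-high and Aire 0 cells, and the others had fewer than 20 UMIs over both classes. Of the 59, 5 were higher and 7 lower at a Benjamini-Hochberg adjusted p under 0.05, where 16.6% of the 18027 genes tested were higher and 24.6% lower. The median log2 difference was 0.04 over the members and -0.03 over all genes. The members called higher in Aire-high cells were Cyp26a1, Cyp1a2, Cyp4f16, Cyp11a1 and Cyp27a1. Those called lower were Cyp2f2, Cyp1b1, Cyp2j6, Cyp2j9, Cyp2b19, Cyp2d22 and Cyp39a1. Of the 12 members called, Cyp1a2 and Cyp2d22 had fewer than 20 UMIs in the class where they were low, so they met the minimum through the other class and their values are a description.

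Cyp26a1 moved most. Its level in Aire-high cells, in CPM (UMIs of the gene per 1000000 UMIs of the class), was 79.6, 99.1, 92.0, 61.2, 21.2, 64.7 and 100.4 in the library order above. In Aire 0 cells it was 0.808, 30.0, 11.6, 1.26, 1.93, 9.01 and 7.29. It was higher in all 7 libraries, and apart from Week 4 anti-RANKL, with 2 positive Aire-high cells, every Aire-high value lay above every Aire 0 value. The difference was 2.21 on the log2 scale (SE 0.20, limma adjusted p = 2.0e-05). Cells with Aire up to 1.5 held 9.31, 13.7, 50.8, 1.72, 9.40, 22.6 and 35.8 CPM of Cyp26a1, which in the Week 2 isotype control is less than the Aire 0 cells held.

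Cyp1a2 was carried by few cells with many transcripts each. In Aire-high cells it was 23.4 and 47.5 CPM in the Week 2 and Week 10 isotype control, 25.9 in Week 6 and 13.4 in Week 10 anti-RANKL, from 13, 20, 2 and 13 positive cells. In Aire 0 cells of the same libraries it was 0.444, 0.643, 1.06 and 0.951. The Aire trace and Week 2 and Week 4 anti-RANKL did not list Cyp1a2, and they held 118, 62 and 22 Aire-high cells. Positive Aire-high cells of the Week 2 and Week 10 control held a mean of 19.1 and 15.4 UMIs of Cyp1a2, while every positive Aire 0 cell held 1. Summed over the libraries, Cyp1a2 had 647 UMIs in Aire-high and 9 in Aire 0 cells, so it entered the fit through the cells in which it was high, and the fit is no independent test of its direction. The log2 difference was 0.99 (SE 0.30, higher in 4 of 7 libraries, limma adjusted p = 0.025), where the 3 libraries without the gene count as 0. The call was lost when any of the 4 libraries that list Cyp1a2 was left out (limma adjusted p = 0.0539 to 0.0633).

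Cyp11a1 had the same form at a lower level. Aire-high cells held 4.29, 15.1, 26.6, 5.03, 0, 14.2 and 10.6 CPM, where Week 4 anti-RANKL did not list the gene. Aire 0 cells held 0.404, 2.44, 0.643, 0.270, 0, 1.06 and 1.59. The Aire-high value was the higher in every library that listed Cyp11a1, though in Week 6 anti-RANKL it rested on 1 cell with 11 UMIs. The difference was 0.82 on the log2 scale (SE 0.18, higher in 6 of 7 libraries and at 0 in both classes of the other, limma adjusted p = 0.00464).

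Cyp4f16, of a family that inactivates leukotrienes, was present in both classes and higher in Aire-high cells. These held 36.2, 36.2, 36.5, 33.5, 31.8, 16.8 and 37.9 CPM and Aire 0 cells 15.1, 18.6, 19.9, 10.1, 6.96, 9.01 and 18.1. Only the value of 16.8 in Week 6 anti-RANKL lay within the range of the Aire 0 cells. The difference was 0.84 on the log2 scale (SE 0.11, higher in 7 of 7 libraries, limma adjusted p = 0.00021). Cyp27a1 rose by less, from 2.37 to 7.77 CPM over the libraries at Aire 0 to 7.42 to 15.5 in Aire-high cells (0.42, SE 0.10, 7 of 7, limma adjusted p = 0.0087).

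Of the members that fell, Cyp2f2 fell most. Aire 0 cells held 68.6, 86.8, 17.4, 66.7, 14.8, 10.6 and 25.4 CPM. Aire-high cells held 4.77, 2.36, 2.63, 5.03, 0, 2.59 and 3.15, all below the lowest Aire 0 value. The log2 difference of Cyp2f2 was -1.76 (SE 0.25, lower in 7 of 7, limma adjusted p = 0.00041). Cyp1b1, which oxidises oestradiol and polycyclic hydrocarbons outside the liver, was at 7.72 to 15.4 CPM at Aire 0 and at 0 to 4.77 in Aire-high cells (-0.82, SE 0.12, lower in 7 of 7, limma adjusted p = 0.00046). The arachidonic acid epoxygenases Cyp2j6 and Cyp2j9 fell by 0.66 and 0.59 on the log2 scale, each in 7 of 7 libraries, and the highest Aire-high value of each (6.47 and 1.24 CPM) lay below its lowest Aire 0 value (7.42 and 4.77). Cyp2d22 was lower by 0.36 in 7 of 7 libraries, with 10 UMIs in Aire-high and 154 in Aire 0 cells. Cyp2b19 fell by 0.55 in 7 of 7 libraries, but its call was lost without the Week 2 isotype control, Week 2 or Week 10 anti-RANKL (limma adjusted p = 0.0538 to 0.0728). Cyp39a1, an oxysterol hydroxylase of the liver, fell by 0.31 in 6 of 7, and its call was lost without the Aire trace, the Week 2 isotype control or Week 2 anti-RANKL (limma adjusted p = 0.055 to 0.0635).

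Several of the more abundant members did not pass the test between the Aire classes. Cyp4v3, a fatty acid hydroxylase of the eye, was at 6.31 to 42.4 CPM in Aire-high cells and at 4.24 to 14.9 in Aire 0 cells (log2 difference 0.12, SE 0.22, higher in 2 of 7 libraries, limma adjusted p = 0.682). Cyp4f13 was at 2.97 to 15.9 and 6.82 to 12.9, and Cyp7b1 at 5.18 to 16.4 and 9.54 to 16.0, with log2 differences of -0.20 and -0.24. Cyp20a1 was at 0 to 12.4 in Aire-high and 7.42 to 15.0 in Aire 0 cells, and Cyp2u1 at 0 to 15.9 and 0.899 to 3.49. For these 5 members the ranges of the classes overlapped.

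Cyp2a5, the member with the most UMIs, had no common direction between the Aire classes. Its levels in Aire-high cells were 62.4, 48.2, 35.4, 161, 95.3, 2.59 and 22.5 CPM, and in Aire 0 cells 70.8, 321, 81.0, 73.3, 3.11, 2.12 and 111. Aire-high cells were the higher in 3 libraries and the lower in 4, and the value of 95.3 in Week 4 anti-RANKL came from 2 positive cells. The log2 difference was -0.21 (SE 0.55, limma adjusted p = 0.775).

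By enzyme group, 5 of the 31 tested Cyp2 genes were lower and 0 higher, where 24.6% of all genes were lower and 16.6% higher. The 9 Cyp4 genes gave 1 higher, the 4 steroid genes 1 higher and the 5 vitamin D and retinoic acid genes 1 higher. The 4 bile acid and cholesterol genes and the 3 Cyp1 genes each gave 1 higher and 1 lower, and neither of the 2 tested Cyp3 genes passed. Differences between these groups were not tested. Markers of other cells moved with the Aire classes. The summed level of 6 macrophage and dendritic cell genes was 3.70 to 8.05 UMIs per 10000 in Aire-high cells and 0.464 to 3.64 in Aire 0 cells, where Itgax, listed in 4 libraries, was at 0. That of 5 cortical genes was 1.67 to 8.58 and 19.0 to 35.1, and that of 4 tuft genes 0.258 to 0.794 and 1.06 to 2.51. The liver transcripts Alb, Ttr and Apoa1 together were at 0 to 1.12 in Aire-high cells and 0.00296 to 1.82 in Aire 0 cells. Their part in the Cyp differences was not tested.

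Within the Aire 0 cells, 32 members could be tested, of which 9 were lower and 1 higher in Ccl21a-high cells, where 22.4% of 15691 genes were lower and 8.21% higher. The members' split was thus near that of all genes, and 22 members did not pass. The members called lower were Cyp2a5, Cyp2g1, Cyp2b19, Cyp3a13, Cyp4f16, Cyp27a1, Cyp2s1, Cyp26b1 and Cyp2j13, and the member called higher was Cyp1b1. Of these 10, Cyp2b19, Cyp3a13, Cyp26b1 and Cyp2j13 had 11, 11, 9 and 3 UMIs in Ccl21a-high cells, fewer than the minimum of 20, so they entered the fit through Ccl21a-low cells and their values are a description. Without 1 library, 2 calls were lost beside that of Cyp1b1, those of Cyp4f16 and Cyp2j13 (limma adjusted p = 0.0611 to 0.0879 and 0.0766 to 0.112). The median log2 difference was -0.19 over the members and -0.08 over all genes.

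Cyp2a5 carried the largest of these differences. Ccl21a-high cells held 9.31, 99.5, 1.47, 5.11, 2.61, 0.912 and 14.0 CPM. Ccl21a-low cells held 291, 449, 143, 191, 4.17, 3.79 and 184. The gene was lower in the Ccl21a-high class of all 7 libraries, by a margin that was small in Week 4 and Week 6 anti-RANKL, where positive cells held about 1 UMI in both classes. The log2 difference of Cyp2a5 was -2.43 (SE 0.48, limma adjusted p = 0.0044).

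Cyp2g1 was at 1.16, 9.10, 0, 1.99, 0.435, 0 and 2.96 CPM in Ccl21a-high cells and at 42.5, 40.2, 25.1, 52.1, 3.71, 0 and 102 in Ccl21a-low cells (-1.62, SE 0.33, lower in 6 of 7 libraries, limma adjusted p = 0.0055). Cyp2b19 was at 0 to 2.96 in Ccl21a-high cells and at 2.78 to 30.1 in Ccl21a-low cells (-1.03, SE 0.20, lower in 7 of 7, limma adjusted p = 0.0040). Cyp2f2, which lies in the same gene array, did not pass the test. It was at 66.1, 61.9, 27.2, 19.9, 10.9, 8.21 and 25.9 in Ccl21a-high cells and at 77.7, 101, 9.71, 148, 23.2, 13.9 and 25.0 in Ccl21a-low cells (-0.48, SE 0.30, lower in 5 of 7, limma adjusted p = 0.245). Cyp1b1 was higher in the Ccl21a-high class in 6 of 7 libraries, at 7.36 to 20.0 against 3.85 to 15.3 (0.46, SE 0.14, limma adjusted p = 0.0318). That call was lost when the Aire trace, the Week 2 isotype control, Week 2 or Week 10 anti-RANKL was left out (limma adjusted p = 0.0705 to 0.0842), and without the filter on low genes (0.0549).

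Among the Ccl21a classes, 5 of 15 tested Cyp2 genes were lower, where 22.4% of all genes were, and 1 gene each was lower among the 7 Cyp4, the 3 bile acid and cholesterol and the 2 vitamin D and retinoic acid genes. Cyp3a13 was the only Cyp3 gene tested, at -0.68 (SE 0.16, lower in 5 of 7 libraries and at 0 in both classes of the others, limma adjusted p = 0.0099). Cyp2s1, an epithelial P450 of skin and airway, fell by 0.45 in 6 of 7 libraries, and Cyp26b1, which degrades retinoic acid, was lower by 0.34 in 7 of 7. Tuft transcripts moved with the Ccl21a classes, at a sum of 0.566 to 1.04 UMIs per 10000 over 4 genes in Ccl21a-high cells and 1.61 to 5.32 in Ccl21a-low cells. The 6 macrophage and dendritic cell genes were at 0.199 to 0.687 and 0.784 to 9.47, with Itgax at 0 in both, and the 3 liver genes at 0.00218 to 0.0443 and 0.00464 to 3.2. Their part in the result was not tested.

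**Figure D3:**
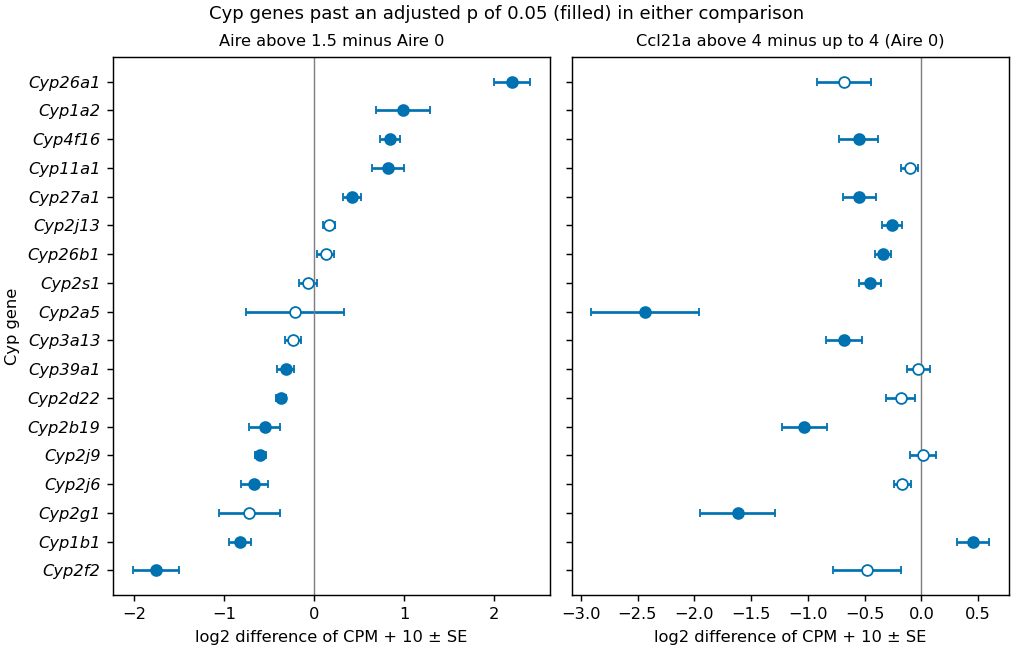
Log2 differences of CPM + 10 with their SE for the 18 members called in either comparison, between Aire classes (left) and between Ccl21a classes of Aire 0 cells (right), where filled circles passed an adjusted p of 0.05 and open circles did not. Cyp26a1 stands at 2.21 and Cyp2f2 at -1.76 on the left, and Cyp2a5 stands near 0 on the left and at -2.43 on the right.

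The partners of the P450 enzymes were followed from lists. Of 9 genes for electron donors and haem supply, 2 were higher and 3 lower in Aire-high cells, near the 16.6% and 24.6% of all genes. Por, the reductase that feeds electrons to the P450 enzymes of the endoplasmic reticulum, fell by 0.95 on the log2 scale (SE 0.09, 7 of 7 libraries, limma adjusted p = 3.7e-05), and Cyb5a and Cyb5r3 fell by 0.48 and 0.32. Alas1, the first enzyme of haem synthesis, was higher by 0.53 and Pgrmc1 by 0.32. Between the Ccl21a classes 1 of the 9 was higher and 3 were lower, where 8.21% and 22.4% of all genes were. Por (-0.70, limma adjusted p = 0.00087), Alas1 (-0.86) and Cyb5a (-0.42) were lower in Ccl21a-high than in Ccl21a-low cells, and Pgrmc1 (0.33) was higher.

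Among receptors known to induce Cyp genes, Vdr was higher in Aire-high cells (log2 difference 0.55, SE 0.19, higher in 5 of 7 libraries, limma adjusted p = 0.0421). Rxra (-0.70) and Ahr (-0.37) were lower. Nr1h4, listed in 5 libraries, was called higher close to the threshold (0.12, SE 0.04, limma adjusted p = 0.0498). Nr1h4 had too few UMIs in Aire 0 cells for the fit between the Ccl21a classes. It met the minimum of the Aire fit through Aire-high cells, so its value is a description. Cyp51 and Tbxas1, P450 genes outside the symbol rule, were higher in Aire-high cells by 0.44 and 0.34. Tbxas1 also had too few UMIs in Aire 0 cells for the fit between the Ccl21a classes. It too met the minimum of the Aire fit through Aire-high cells, so its value is a description. Between the Ccl21a classes, Ahr (-0.61), Vdr (-0.62) and Rxra (-0.33) were lower in Ccl21a-high cells.

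**Figure D4:**
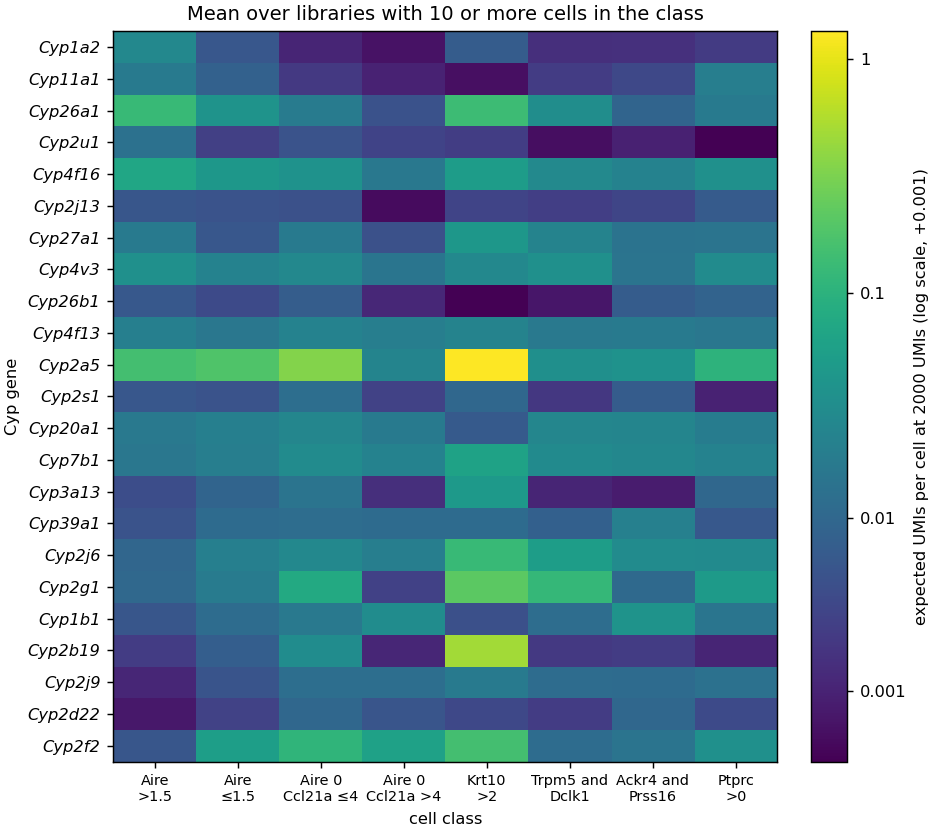
Expected UMIs per cell at 2000 UMIs for the named members in 8 classes of cells, as the mean over libraries with at least 10 cells in the class (colour, log scale, with 0.001 added). Among the Aire and Ccl21a classes Cyp26a1, Cyp1a2 and Cyp11a1 are brightest in the Aire-high column, and Cyp2a5 is brightest in the Krt10 column, at 1.32.

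Many Cyp genes lie in arrays, and it was counted how often genes of the same array were found together in a cell. Genes at most 1000000 bases apart were joined into clusters. The cluster that holds Cyp2a5 is chr7:25802475-27158668 with 13 annotated genes, 8 of them listed, among them Cyp2g1, Cyp2b19, Cyp2f2 and Cyp2s1. At 2000 UMIs and summed over libraries and classes, pairs of members of the same cluster gave 169 joint detections, where independent detection within a library and class gives 61.4 (147 pairs, ratio 2.75). A joint detection is a pair in a cell, so a cell with more than 2 members counts once for each pair. Pairs of different clusters gave 722 joint detections against 621 (2481 pairs, ratio 1.16). Without the Krt10 cells the ratios were 2.77 and 1.14. The cluster of Cyp2a5 alone gave 139 of the 169 joint detections, against 50.3 (ratio 2.76).

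Cyp2a5 and Cyp2g1 were found together in 44.2 cells against 11.3, and Cyp2a5 and Cyp2f2 in 36.6 against 13.8. Pairs of Cyp2a5 with members of other clusters varied. Of the 23 such pairs with at least 1 cell expected, 13 had a ratio above 1, with a median of 1.04 and a range of 0.169 to 4.56, and together they gave 147 joint detections against 118. Cyp2a5 was found with Cyp4f16 in 27.9 cells against 17.1, with Cyp4v3 in 19.1 against 10.3, with Cyp26a1 in 13.1 against 12.9, with Cyp20a1 in 5.77 against 8.41 and with Cyp2d12 in 6.20 against 1.36. The 4 pairs of Cyp2a5 within its cluster and with at least 1 cell expected had ratios of 1.30 to 3.90 (median 2.69), within the range of the others. In clusters outside chromosome 7 the numbers were small and the ratios varied. The Cyp4f array of chromosome 17 gave 8.38 joint detections against 6.97 (ratio 1.20), close to the ratio of genes of different clusters, and Cyp26a1 and Cyp26c1 gave 0.0215 against 0.0231. The Cyp2c array of chromosome 19 gave 3.99 joint detections against 0.169, and Cyp1a1, Cyp1a2 and Cyp11a1, which lie within chr9:57676937-58027023, gave 4.93 against 0.856. In the Cyp2a, Cyp2c and Cyp2d arrays copies share transcript ends, so reads of 1 gene can be counted for another. These values describe cells that share a library, with no test, and each class still holds different kinds of cells.

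Along the time course, the number of different Cyp genes was lowest at Week 4 and lay between the controls at Week 10. In 200 cells with Ptprc at 0, 34.3 and 28.5 different Cyp genes were expected in the Week 2 and Week 10 isotype controls. In Week 2, Week 4, Week 6 and Week 10 anti-RANKL 20.8, 16.8, 20.2 and 28.6 were expected, and 23.8 in the Aire trace. The Week 2, Week 4 and Week 6 values lay below both controls, and Week 10 lay at the lower control. Relative to the mean of the controls they were 0.662, 0.536, 0.642 and 0.911, with no replicate of any time point.

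The deposited tables drop genes of fewer than 3 cells, which removes more genes from smaller or shallower libraries, so the count was repeated for genes found in at least 3 of 600 cells. This gave 26.5 and 22.6 for the Week 2 and Week 10 controls and 18.2, 15.0, 18.6 and 24.3 for the treated libraries. Week 2, Week 4 and Week 6 again lay below both controls, and Week 10 between them. Counting only the 21 genes listed in all 7 libraries, the ratios to the control mean in 200 cells were 1.02, 0.937, 1.04 and 1.07, and these genes are by construction those that the libraries with the fewest genes still held.

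The kinds of cells moved with this count. Cells with Ccl21a above 4, whatever their Aire, were 160 of 1129 and 208 of 1247 cells in the controls and 684 of 1184, 868 of 1340, 302 of 658 and 246 of 1172 in Week 2, Week 4, Week 6 and Week 10 anti-RANKL. Krt10 cells numbered 23 and 5 in the controls and 12, 1, 1 and 29 after treatment. Among Aire 0 cells the Ccl21a-high class held fewer Cyp genes per cell in every library, and the Krt10 cells held more than the other classes in the 4 libraries with at least 10 of them. The part of these shares in the number of Cyp genes was not tested.

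The number of Aire-positive cells differed too, with 768 and 823 in the controls and 203, 62, 235 and 677 in Week 2, Week 4, Week 6 and Week 10 anti-RANKL. Aire-positive cells held 0.581 and 0.447 Cyp genes per cell in the controls and 0.371, 0.274, 0.264 and 0.464 in the treated libraries. In 20 Aire-positive cells 8.70 and 6.84 different Cyp genes were expected in the controls and 5.58, 4.57, 4.52 and 6.88 after treatment. Week 2, Week 4 and Week 6 lay below both controls by both counts. In Aire-high cells alone the ratio of Cyp genes per cell to the control mean was 0.844 at Week 4, from 22 cells, and 0.651 at Week 6, nearer to 1 than the 0.533 and 0.513 of all Aire-positive cells. At Week 2 Aire-high cells held 0.374 Cyp genes per cell, close to the 0.371 of all Aire-positive cells and below the 0.548 and 0.484 of the Aire-high cells of the controls.

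Folds against the controls were set on CPM + 10, which damps the folds of low genes, for the 15 members with a mean CPM of at least 5 in cells with Ptprc at 0. Those more than 2-fold below both controls on this scale were Cyp1a2 and Cyp26a1 at Week 2, Cyp1a2, Cyp26a1, Cyp2a5 and Cyp4f16 at Week 4, Cyp2a5 at Week 6 and none at Week 10. Among the 11060 genes so compared, 3.24%, 6.34%, 3.35% and 0.0271% lay that low at Week 2, Week 4, Week 6 and Week 10. Cyp1a2 was not listed at Week 2 and Week 4 and entered as 0, and it passed the filter only through the other libraries, so these counts are a description of single genes. On CPM + 10 no member lay more than 2-fold above both controls, where 1.77%, 3.2%, 2.4% and 0.0452% of genes did.

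On CPM with nothing added, a setting chosen after seeing the data, more members lay past 2-fold. Those below both controls numbered 4 at Week 2, 7 at Week 4, 7 at Week 6 and 0 at Week 10 (8.21%, 13.5%, 10.5% and 0.199% of all genes compared). Cyp26a1, Cyp4f16, Cyp11a1 and Cyp1a2 were among them at Week 2, Week 4 and Week 6. Of these, Cyp1a2 at Week 2 and Week 4 and Cyp11a1 at Week 4 were not listed and entered with no UMIs, so their place there follows from the listing. Cyp1b1 lay more than 2-fold above both controls at Week 2, Week 4 and Week 6, and Cyp2f2 at Week 2 (5.88%, 7.99% and 6.0% of all genes).

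Cyp26a1 was at 58.9 and 62.0 CPM in the controls, at 6.22, 2.76, 24.5 and 59.1 in Week 2, Week 4, Week 6 and Week 10 anti-RANKL and at 13.7 in the Aire trace. Cyp2a5 was at 141 and 44.1 in the controls and at 94.9, 5.79, 2.48 and 63.6 after treatment, so the controls themselves differed by over 3-fold. Cyp4f16 was at 28.8 and 29.7 in the controls and at 12.2, 7.72, 12.4 and 28.9 after treatment. Cyp26a1 and Cyp4f16 were below both controls from Week 2 to Week 6, while Cyp2a5 was so at Week 4 and Week 6 only. Cyp1b1 stood the other way round, at 3.75 and 4.26 in the controls and at 10.8, 14.7, 9.08 and 5.77 after treatment, above both controls at every week.

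Within Aire-positive cells, where 13 members could be compared on CPM + 10, Cyp26a1 and Cyp1a2 were more than 2-fold below both controls at Week 2 and Week 4, with Cyp11a1 at Week 4, and Cyp2a5 was so at Week 6. Cyp1a2 at Week 2 and Week 4 and Cyp11a1 at Week 4 were not listed and entered with no UMIs. Both passed the filter only through other libraries, so their values are a description. The background shares were 1.26%, 4.25% and 1.96% at Week 2, Week 4 and Week 6 and 0.0457% at Week 10, when no member qualified. Cyp2f2 was more than 2-fold above both controls at Week 2, and no member was at the later weeks, where the background shares were 1.28%, 2.97%, 2.49% and 0.0183%. The Aire-high level of Cyp26a1 at Week 4 came from 2 positive of 22 cells.

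**Figure D5:**
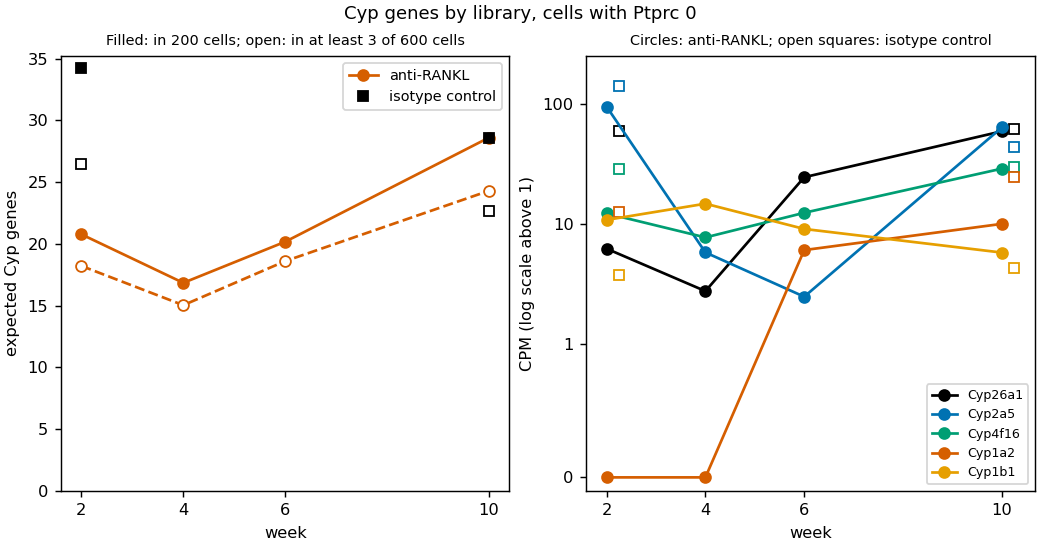
Left, expected number of Cyp genes in 200 cells (filled) and in at least 3 of 600 cells (open) by week, for anti-RANKL (circles) and isotype control (squares), and right, CPM of 5 members in cells with Ptprc at 0 (log scale above 1) for anti-RANKL (circles) and control (open squares, shifted right). Both counts are lowest at Week 4, and at Week 10 Cyp26a1 and Cyp4f16 stand at 59.1 and 28.9, close to their controls, and Cyp1a2 is drawn at 0 at Week 2 and Week 4, where it was not listed.

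In the Aire trace, Aire 0 cells with a ZsGreen transcript held more Cyp genes than Aire 0 cells without it. The 413 cells with ZsGreen held 0.461 Cyp genes per cell and the 618 without it 0.301. Among Ccl21a-low cells the values were 0.84 in 126 cells and 0.392 in 106, and among Ccl21a-high cells 0.295 in 287 cells and 0.282 in 512. The gap lay in the Ccl21a-low cells, of which 7 with ZsGreen and 1 without it were Krt10 cells. ZsGreen was also found in 63.8% of the 69 cells with a Ptprc transcript, and these 69 cells had a median of 12350 UMIs. All 1031 Aire 0 cells, of which 413 held ZsGreen, had a median of 8346 UMIs. Whether a ZsGreen transcript was made by the cell that held it was not tested. This is 1 library, and no test was made.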

How the data were processed

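Each library was a droplet sequencing run of sorted cells from 3 pooled thymi. According to the study's methods and the submitters' processing notes, the authors counted UMIs with Cell Ranger 2.2.0 on mm10, with the ZsGreen sequence added for the Aire trace library only, and filtered and normalised them with Seurat 2.3.4, keeping genes found in at least 3 cells and cells with 200 to 7500 genes and at most 10% mitochondrial transcripts. The deposited values are natural log values, ln(1 + UMIs per 10000), per gene and cell. The methods state a scale factor that differs from the 10000 to which the deposited values of each cell sum. The 2 deposited tables that combine libraries were not used.

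From these values whole UMI counts were recovered in 100.0% of cells (tolerance 0.001). Depth was 3857876 to 22197691 UMIs per library. Intervals and limits of detection cover counting error only. The genes expected at 2000 UMIs were computed exactly from each cell's counts, and genes per number of cells by exact rarefaction. UMI sums per library and class were compared on log2(CPM + 10) with limma 3.58.1 in R 4.3.3 (trend, library as block), for genes with at least 20 UMIs over the sums, with Benjamini-Hochberg adjustment over all genes tested. A fold on this scale understates the change of low genes. Classes per cell were compared by exact two-sided sign-flip permutation tests over 7 libraries (NumPy 2.4.6, SciPy 1.17.1). Both classes of a library come from the same pool of mice, so the library pairs them. With 1 library per group, the p-values measure the spread between libraries of different treatment and age. The time course compares single libraries, for genes with a mean CPM of at least 5. The scripts were tested on simulated data.

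Members named in detail are the 12 with the most expected UMIs in Aire-high cells, the 6 with the most in Aire 0 cells and every member called in either fit. The rule for the members uses only symbols, but that rule and the lists were chosen with earlier results of these data known. Alternatives were the common depth, the cutoff of Aire, cells with Ptprc, the pseudocount, the filter, the scaling, the block, and each library left out. A gene of the list of inducing receptors and that list's counts are not reported here.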

Additional observations from a re-analysis of the deposited data

Results flagged for a closer look

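The Week 2 and Week 10 isotype controls went opposite ways in the number of Cyp genes per cell between Aire-high and Aire 0 cells, at -0.102 and 0.115, and the difference between the libraries was not tested. Cyp2a5 did the same in other libraries. It was at 48.2 CPM in Aire-high and 321 in Aire 0 cells of the Week 2 isotype control, and at 95.3 in Aire-high (2 positive of 22 cells) and 3.11 in Aire 0 cells of Week 4 anti-RANKL, again without a test of the difference.

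Cyp11a1 was found in 5.70% of the cells with a Ptprc transcript (13 of 228 cells in 5 libraries, exact 95% binomial interval 3.07% to 9.55%, 0% to 15.2% over libraries). It was found in 0.441% of the Aire 0 cells with Ptprc at 0 (22 of 4993, interval 0.276% to 0.666%) and in 4.19% of the Aire-positive cells (128 of 3055, interval 3.51% to 4.96%), whose interval overlaps that of the cells with Ptprc. The intervals pool cells over libraries. Median depth over libraries was 4000 to 13124.5 UMIs in the cells with Ptprc, 3983 to 11231 at Aire 0 and 6806 to 20200.5 in Aire-positive cells. Doublets and free RNA were not tested as a source.

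Cyp4a12a and Cyp4a12b, whose symbols end in a letter and so fall outside the rule, had 29 UMIs in 14 cells and 68 UMIs in 24 cells, with up to 5 and 11 in a cell.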

How the results depend on the processing

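Of 538 values under other settings for 52 results, 474 kept their direction and their side of the threshold or moved little, 35 lost significance, 22 moved and 7 changed sign. The changes of sign were in differences between Aire-high and Aire 0 cells that did not pass a test. That in Cyp genes per 20 cells was -0.137 at 4000 UMIs. That in UMIs per detected Cyp gene was -0.0755 at 4000 UMIs, -0.0224 at 1000 UMIs and -0.176 with an Aire cutoff of 2, and lay between -0.139 (without Week 4 anti-RANKL) and 0.119 with 1 library left out, being -0.0108 without the Week 10 isotype control and -0.0327 without Week 6 anti-RANKL. The same measure between the Ccl21a classes was -0.642 to -0.484 with 1 library left out, and did not pass in 6 of these 7 fits (exact permutation p = 0.0625).

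With 1 library left out, the difference in Cyp genes per cell was 0.0292 to 0.0802 between the Aire classes and -0.287 to -0.231 between the Ccl21a classes. Members called were 4 to 5 higher and 5 to 10 lower between the Aire classes, and 0 to 1 higher and 7 to 12 lower between the Ccl21a classes. In Ccl21a-high cells 0 members were higher without the filter on low genes. Without the library as a block, limma called 5 higher and 7 lower, and 1 higher and 8 lower. Of the 12 and 10 calls, 9 and 7 held under every setting tried, and 3 in each comparison did not. Between the Aire classes, these were Cyp1a2, Cyp2b19 and Cyp39a1, each lost without single libraries as given above, and Cyp39a1 also with CPM rescaled by the median ratio. Between the Ccl21a classes, Cyp1b1 was lost as given above, Cyp4f16 without the Aire trace, either control, Week 10 anti-RANKL or the filter on low genes, and Cyp2j13 without any of the 5 libraries that list it, without the filter, without the block and with a pseudocount of 50.

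With Aire above 1.5 the ratios per cell to the control mean were 0.844 at Week 4 (22 cells) and 0.651 at Week 6, and with at least 2 UMIs of ZsGreen the ZsGreen difference was 0.364. The settings that follow were chosen after seeing the data, as were the comparison of Aire-high with Ccl21a-low cells and, between the Ccl21a classes, the genes in 20 cells, the UMIs per detected gene and the ratios to serpins and apolipoproteins. With only genes listed in all 7 libraries, ratios to the control mean were 0.888 and 0.705 per Aire-positive cell at Week 2 and Week 4, 0.943, 0.851 and 0.748 in 20 Aire-positive cells at Week 2, Week 4 and Week 6, and 1.02, 0.937, 1.04 and 1.07 in 200 cells. With genes in at least 3 cells they were 0.612 and 0.757 at Week 4 and Week 6 in 600 cells, and 0.485 and 0.386 in 60 Aire-positive cells. The ZsGreen difference of 0.16 was 0.448 in Ccl21a-low cells. On CPM with nothing added, members more than 2-fold below both controls numbered 4, 7 and 7 at Week 2, Week 4 and Week 6, and on CPM + 10 they numbered 2, 4 and 1. The effect of treatment was not tested, since each time point has 1 library per arm.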
